A study of Mus musculus with 4 samples.

Results

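The 10 immediate early genes Fos, Fosb, Jun, Junb, Egr1, Atf3, Ier2, Dusp1, Nr4a1 and Zfp36 were followed in the small intestine of Cftr-null (CF) and wild type (WT) mice with and without lubiprostone, a drug given to raise intestinal chloride and fluid secretion. They were chosen by gene symbol in the annotation of the Affymetrix mouse GeneChip used, which gives 11 of its 45101 probe sets for them: 2 for Jun and 1 for each other gene. None of the 11 is listed for another gene as well. Probe sets under their array's median signal on all 4 arrays were dropped, and 12259 genes and 9 of the 10 members remained. Fosb lay below the median on all 4 arrays.

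Immediate early genes are transcribed within minutes of a stimulus from factors already present in the cell, without new protein synthesis. Growth factors, cytokines, stretch, stress and calcium or cAMP signals reach them through MAP kinases and protein kinase A, which act on SRF with its partners at CArG boxes and on CREB at cAMP response elements (CRE). Most of their mRNAs are short-lived, and several of their products are transcription factors that act on later genes or inhibitors that end the same signal. In the intestinal epithelium c-Jun is known for its part in the proliferation of crypt cells.

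The 4 groups were CF + lubiprostone, CF control, WT + lubiprostone and WT control, all C57BL/6 mice (C57BL/6J in the study's methods) kept on the liquid diet Peptamen. CF mice carried the cftr-tm1Unc null allele in every tissue, and the WT mice were littermates. The treated mice were gavaged with lubiprostone at 10 µg/kg in Peptamen each day for 2 weeks, and the sources do not say whether control mice were gavaged. Total RNA of the whole small intestine, with the mesentery removed, was pooled within each group and put on 1 array. The pools held 8 CF + lubiprostone, 10 CF control and 7 WT + lubiprostone mice, and the sources give either 8 or 10 mice for the WT control pool. With 1 array a group there is no replicate check, no test was possible, and every difference below compares single pools.

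All arrays had been scaled to a 2% trimmed mean signal of 500.003, with medians between 109 and 124 and 75th percentiles between 464 and 482. Of the enterocyte markers 5 were on the array and all 5 were kept. Their summed signal was 106381 in CF + lubiprostone, 100861 in CF control, 132547 in WT + lubiprostone and 121097 in WT control. In CF control over WT control 1 of the 5 was higher and 4 lower. Between the treated groups 2 were higher in CF + lubiprostone and 3 lower. The summed signals of several other cell types' markers differed between the pools. The summed signal of 4 exocrine pancreas genes was 6644 on the CF + lubiprostone array, 28553 on the CF control array, 2621 on the WT + lubiprostone array and 24091 on the WT control array. The 5 mast cell genes kept summed to 1275 in CF + lubiprostone, 10506 in CF control, 892 in WT + lubiprostone and 1197 in WT control. The 6 smooth muscle genes summed to 25952, 37117, 28345 and 25255 in the same order, and 5 fibroblast genes to 15277, 27349, 14227 and 17063. The 6 leukocyte genes kept summed to values between 8902 and 11283, and 5 endothelial genes to values between 1127 and 1434. The 3 neuron and glia genes kept summed to 333 in CF + lubiprostone, 392 in CF control, 490 in WT + lubiprostone and 520.2 in WT control. At equal treatment, all 6 leukocyte genes were lower in CF mice. Their median log2 ratio, CF over WT, was -0.27 for the control arrays and -0.36 for the treated ones. Cd3e differed most, with 20.4 in CF + lubiprostone and 43.9 in CF control, both under the array's median. It had 145 in WT + lubiprostone and 206 in WT control. The 2 adipocyte genes kept summed to 5242 in CF + lubiprostone, 2614 in CF control, 2666 in WT + lubiprostone and 3436 in WT control, and were thus highest on the same array as most members. This sum, like those above, adds all kept probe sets of its genes. Fabp4, averaged over its 4 probe sets of which 2 were kept, had 1333 in CF + lubiprostone and 649.7 in CF control. It had 690.1 in WT + lubiprostone and 826 in WT control. Adipoq reached the array's median only in WT control (173). Its signals of 1.56 in CF + lubiprostone, 99.5 in CF control and 15.3 in WT + lubiprostone lay under it. The 2 genes thus had different highest arrays, and no fold was drawn among the dim Adipoq signals. No erythroid gene was kept. The part of these cell types in the results below was not tested.

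The promoters of the 2 kept members with the widest range over the arrays, Dusp1 and Zfp36, and of the member with the narrowest, Fos, are shown to set their elements side by side. Each run is the 250 bases before the gene's start in RefSeq (GRCm38.p6), read 5′ to 3′ along the gene. Dusp1 is at chr17:26508473-26508722 and Zfp36 at chr7:28379229-28379478, both on the minus strand, and Fos is at chr12:85473640-85473889 on the plus strand. Capitals mark the CRE core TGACG and the palindrome TGACGTCA in Dusp1, the EGR site GCGGGGGCG and the CArG box in Zfp36, and TGACG and the TATA box TATAAA in Fos.
Dusp1: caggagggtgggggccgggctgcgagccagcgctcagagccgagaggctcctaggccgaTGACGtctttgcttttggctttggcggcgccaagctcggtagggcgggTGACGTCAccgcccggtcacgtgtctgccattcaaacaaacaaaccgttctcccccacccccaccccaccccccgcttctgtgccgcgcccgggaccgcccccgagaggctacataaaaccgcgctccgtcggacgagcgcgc
Zfp36: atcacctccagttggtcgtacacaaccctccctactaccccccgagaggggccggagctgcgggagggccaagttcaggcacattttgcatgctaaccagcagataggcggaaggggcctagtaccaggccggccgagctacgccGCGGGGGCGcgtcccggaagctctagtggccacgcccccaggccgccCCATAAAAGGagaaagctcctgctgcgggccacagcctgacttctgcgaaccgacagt
Fos: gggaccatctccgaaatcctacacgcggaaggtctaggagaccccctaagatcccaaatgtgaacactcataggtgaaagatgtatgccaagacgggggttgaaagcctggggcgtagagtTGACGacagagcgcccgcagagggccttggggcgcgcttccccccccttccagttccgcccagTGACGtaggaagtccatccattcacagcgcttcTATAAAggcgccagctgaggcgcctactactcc
The CRE palindrome of Dusp1 lay 143 to 136 bases before the start, and the same palindrome was found in 1.55% of the 32544 RefSeq windows of this length, with both strands searched. The CArG box of Zfp36 lay 58 to 49 bases before the start and occurred in 1.48% of windows. Promoters of 8 of the 10 members were matched, with none available for Egr1 and Ier2. Of these 8 windows only that of Zfp36 held a CArG box, and bases further upstream were not searched. The core TGACG, which the palindrome holds on both strands, was in 6 of the 8 (Fos, Fosb, Junb, Atf3, Dusp1 and Nr4a1) and in 17.8% of all windows. An EGR site, GCGGGGGCG or GCGTGGGCG, was in Fosb, Nr4a1 and Zfp36 and in 3.09% of windows, and TATAAA was in Fos and in 12.3% of windows. These matches describe the letters of the windows only.

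Fos, which encodes c-Fos, a subunit of the AP-1 dimer, had signals of 8910.3 in CF + lubiprostone, 8674 in CF control, 8719 in WT + lubiprostone and 8025 in WT control. The highest array exceeded the lowest by 1.11-fold, the narrowest range among the members kept, and 4.22% of the 12259 genes had a narrower one. Fosb, a close relative of Fos, had signals of 52.1 in CF + lubiprostone, 79.3 in CF control, 58.3 in WT + lubiprostone and 91.6 in WT control. All of these were below the arrays' medians, so no fold was drawn for Fosb.

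Jun encodes c-Jun, the usual dimer partner of c-Fos. Its probe set 1417409_at gave 2178 in CF + lubiprostone, 1853 in CF control, 2323 in WT + lubiprostone and 2341 in WT control. Its probe set 1448694_at gave 1171 in CF + lubiprostone, 865 in CF control, 1202 in WT + lubiprostone and 1237 in WT control. Both probe sets were lowest in CF control, and Jun was the only member kept whose highest array was not CF + lubiprostone. The mean of their log2 ratios put Jun 1.34-fold below WT control in CF control (log2 ratio -0.43).

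Junb, a Jun relative that opposes c-Jun at some of its targets, had 1915 in CF + lubiprostone, 1548 in CF control, 1505 in WT + lubiprostone and 1340.1 in WT control. It was higher with lubiprostone than without it in both genotypes, 1.24-fold in CF and 1.12-fold in WT. Atf3, a stress-induced factor of the CREB/ATF family, had 776 in CF + lubiprostone, 585 in CF control, 578 in WT + lubiprostone and 764 in WT control. CF + lubiprostone and WT control stood together above the other two arrays. With lubiprostone Atf3 was 1.33-fold higher in CF mice and 1.32-fold lower in WT mice.

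Egr1, a zinc-finger transcription factor that SRF activates, had 1239.7 in CF + lubiprostone, 1029 in CF control, 1138 in WT + lubiprostone and 1071 in WT control. Its arrays lay within 1.20-fold of each other. Nr4a1, an orphan nuclear receptor, had 363 in CF + lubiprostone, 263 in CF control, 278 in WT + lubiprostone and 297 in WT control. It was the dimmest member kept, with signals between the median and the 75th percentile on all 4 arrays. CF + lubiprostone stood 1.38-fold above CF control, and the other three arrays lay closer together. Ier2, an early gene for a nuclear protein, had 1314 in CF + lubiprostone, 1239 in CF control, 1020.2 in WT + lubiprostone and 1051 in WT control. Both CF arrays were above both WT arrays for Ier2.

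Dusp1 encodes a phosphatase that switches off p38, JNK and ERK and so ends the signal that induces it. Its signal was 1483 in CF + lubiprostone, 1044 in CF control, 718 in WT + lubiprostone and 1084 in WT control. The control arrays were alike, CF control being 1.04-fold below WT control, and the treated arrays lay on either side of them. With lubiprostone Dusp1 was 1.42-fold higher in CF mice and 1.51-fold lower in WT mice, which put CF + lubiprostone 2.07-fold above WT + lubiprostone (log2 ratio 1.05). This ratio was larger in size than that of 94.0% of genes in the same comparison. Of the 8 member promoters matched, only that of Dusp1 holds the CRE palindrome, and a link between this element and the signals was not tested.

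Zfp36 encodes tristetraprolin, which binds AU-rich elements and speeds the decay of cytokine and early gene mRNAs. Its signal was 5057 in CF + lubiprostone, 4255 in CF control, 3733 in WT + lubiprostone and 3257 in WT control. Both CF arrays were above both WT arrays, and each treated array was above its control. The highest was 1.55-fold above the lowest, and 63.6% of genes had a smaller range.

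**Figure D1:**
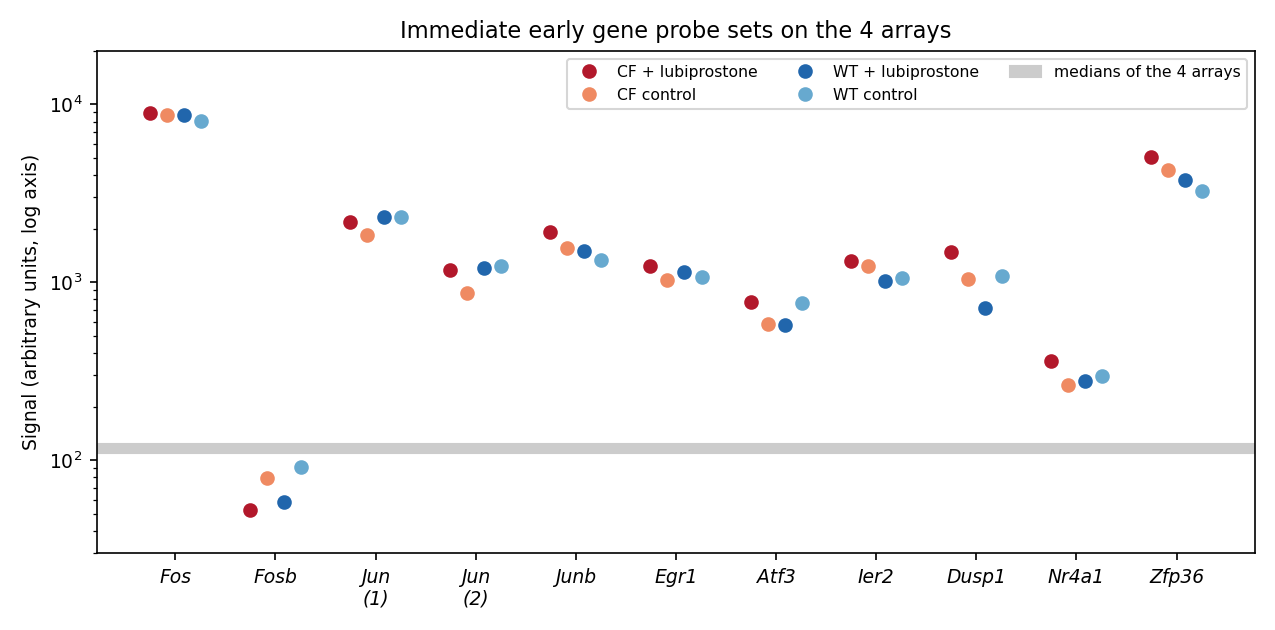
Signal of each probe set (arbitrary units, log axis) on the arrays of CF + lubiprostone, CF control, WT + lubiprostone and WT control, 1 point an array, with the medians of the 4 arrays as a grey band; Jun (1) is 1417409_at and Jun (2) is 1448694_at. Only Fosb, between 52.1 and 91.6, is under the band, and the points of Dusp1 spread most among the members above it, between 718 and 1483.

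The first comparison asked how the members differed between genotypes without treatment. In CF control over WT control, 4 members were higher and 5 lower, with log2 ratios between -0.43 (Jun) and 0.39 (Zfp36). With arrays scaled to the same median, Egr1, Dusp1 and Nr4a1 changed to higher, and the median of all genes was 0.16. As deposited, the members' median was -0.06, beside -0.02 over 11806 genes, of which 48.2% were higher. No member was 2-fold higher, 2-fold lower or 3-fold different, beside a background of 2.80%, 4.84% and 2.98% of all genes. Zfp36 was 1.31-fold higher in CF control, Ier2 1.18-fold and Junb 1.16-fold, while Atf3 was 1.31-fold lower. As RNA came from whole tissue, fewer cells of a type and less RNA per cell cannot be told apart here or below.

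Among WT mice, lubiprostone left 4 members higher and 5 lower than in WT control. The median log2 ratio was -0.03, beside -0.00 over 11691 genes. Dusp1 (-0.60) and Atf3 (-0.40) were the lowest, and the other 7 lay between -0.10 and 0.20. Again no member passed 2-fold in either direction or 3-fold, where 1.35% of genes were 2-fold higher, 1.42% 2-fold lower and 1.06% 3-fold different.

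Among CF mice all 9 members were higher with lubiprostone than in CF control, where 51.5% of 11795 genes were higher. The sizes were small. They were between 1.03-fold (Fos) and 1.42-fold (Dusp1), with a median log2 ratio of 0.31 beside 0.01 over all genes. Nr4a1 (1.38-fold), Atf3 (1.33-fold) and Jun (1.26-fold) followed Dusp1. No member passed 2-fold, beside 3.20% of genes that were 2-fold higher and 2.15% that were 2-fold lower, and none passed 3-fold, beside 1.68%. Scaling all arrays to the same median moved the median of all genes to -0.12 in this comparison, and the log2 ratios of Fos and Ier2 were then -0.09 and -0.04. The members' median was then 0.18.

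Between treated mice, 8 members were higher in CF + lubiprostone than in WT + lubiprostone and Jun was lower (log2 ratio -0.07). The median log2 ratio was 0.37, beside 0.00 over 11792 genes, of which 50.3% were higher. Dusp1 was the 1 member of 9 that was 2-fold higher, beside 3.22% of genes. None was 2-fold lower or 3-fold different, beside 3.41% and 2.52%. Zfp36 (1.35-fold), Atf3 (1.34-fold), Nr4a1 (1.31-fold), Ier2 (1.29-fold) and Junb (1.27-fold) were close together, and Egr1 was 1.09-fold higher. Each array enters 2 of the 4 comparisons, so their values are not independent.

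**Figure D2:**
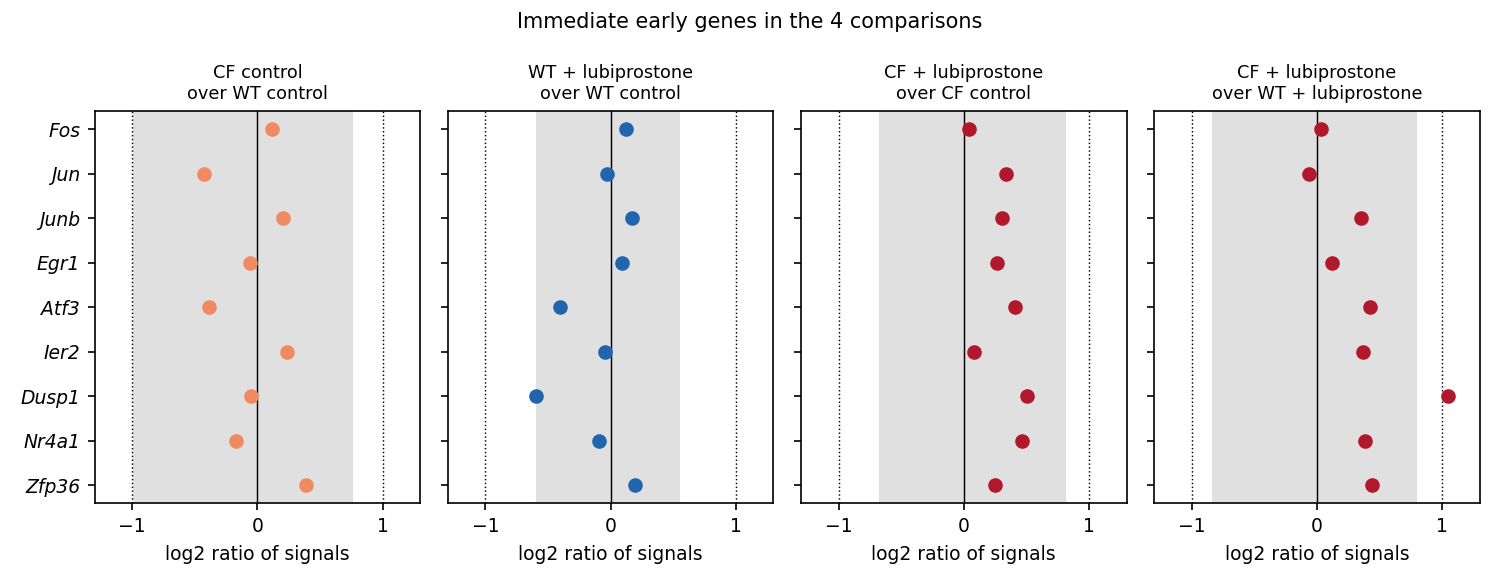
log2 ratio of signals of the 9 members kept (rows) in the 4 comparisons (panels), 1 point a gene; the grey band spans the 5th to 95th percentile of all genes and dotted lines mark 2-fold. With signals as deposited all 9 points are right of 0 in CF + lubiprostone over CF control (Fos and Ier2 are left of it once arrays are scaled to the same median), and Dusp1, at 1.05 in CF + lubiprostone over WT + lubiprostone, is the only one past a dotted line.

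The only measure of error within these arrays is the spread between probe sets of one gene. For genes at or above the 75th percentile on all arrays, the median SD of their log2 ratios was 0.13 in CF control over WT control, 0.11 in WT + lubiprostone over WT control, 0.15 in CF + lubiprostone over CF control and 0.13 in CF + lubiprostone over WT + lubiprostone. Of the 8 members of that brightness, 5 had a larger log2 ratio than this in CF control over WT control, beside 69.5% of the genes of that brightness, and 5 in WT + lubiprostone over WT control, beside 55.0%. The numbers were 6 in CF + lubiprostone over CF control, beside 59.8%, and 5 in CF + lubiprostone over WT + lubiprostone, beside 61.8%. With 8 genes, nothing is read from these shares. The 2 probe sets of Jun gave 1.35-fold and 1.18-fold for CF + lubiprostone over CF control. No value for the spread between mice can be drawn from pooled RNA.

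Over all 4 arrays the members varied about as much as other genes. The highest array was above the lowest by 1.11-fold to 2.07-fold, with a median of 1.34-fold beside 1.41-fold for 12259 genes. Of the 9 members, 8 had a range under 2-fold, as did 82.9% of all genes. The 8 members at or above the 75th percentile on all arrays had a median range of 1.34-fold, beside 1.31-fold for the 3509 genes of that brightness, and 7 of these 8 were under 2-fold, beside 92.5% of those genes. CF + lubiprostone was the highest array for 8 of 9 members and for 26.6% of genes. The lowest array was CF control for 3 members, WT + lubiprostone for 3 and WT control for 3. With arrays scaled to the same median, CF + lubiprostone was highest for 6 members and 22.6% of genes, Fos and Ier2 being then highest in CF control.

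**Figure D3:**
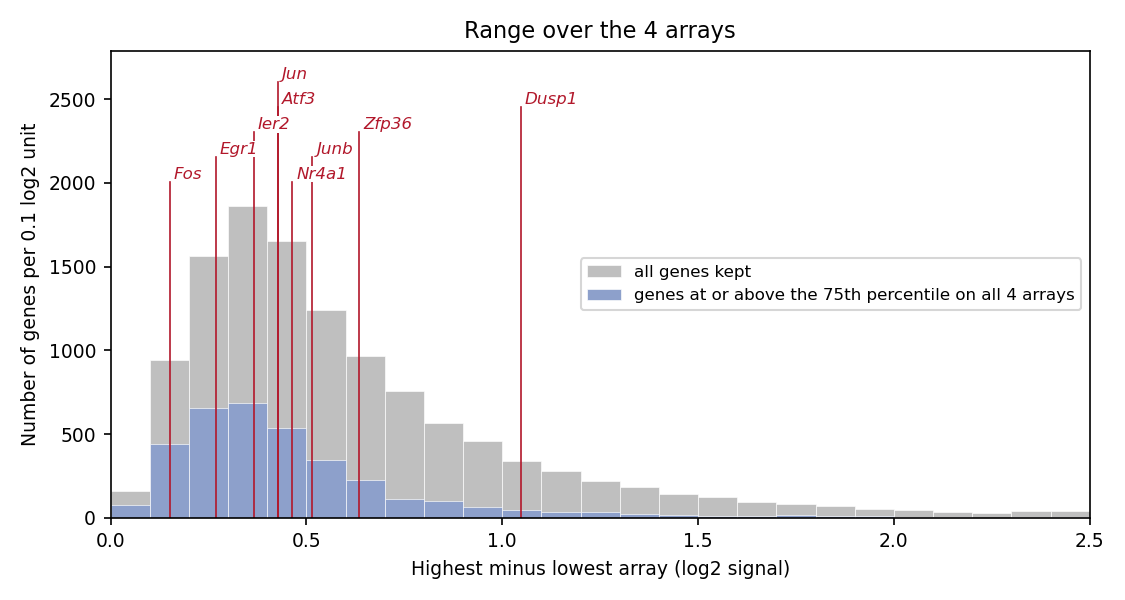
Number of genes (vertical axis) by the difference between their highest and lowest array (horizontal axis, log2 signal), for all genes kept (grey) and those at or above the 75th percentile on all 4 arrays (blue), with red lines at the 9 members kept; genes past the right edge are not drawn. Fos (1.11-fold) is at the low edge and Dusp1 (2.07-fold) far to the right of the other members, while most lie near the peak.

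Other genes of the early response were followed as lists, with signals as deposited. Of all genes, 51.5% were higher with lubiprostone in CF and 49.5% with it in WT. Between the treated groups, 50.3% were higher in CF + lubiprostone. Scaling arrays to the same median moved the median log2 ratio of all genes with lubiprostone in CF from 0.01 to -0.12. No list values are given under that scaling. Of 9 other AP-1 and related bZIP genes kept, 6 were higher and 3 lower with lubiprostone in CF (median log2 ratio 0.27), and all 8 that could be counted were higher in CF + lubiprostone than in WT + lubiprostone (0.44). Batf3, not counted there, was lower, with 57.2 in CF + lubiprostone and 119 in WT + lubiprostone, both under the array's median. Jund, the Jun relative with the highest signal of its list, had 8349 in CF + lubiprostone, 5221 in CF control, 4898 in WT + lubiprostone and 4306 in WT control. It was thus 1.60-fold higher with lubiprostone in CF and 1.14-fold higher in WT. Of 10 other early transcription factors kept, 6 were higher and 4 lower with lubiprostone in CF (0.18), and 8 were higher and 2 lower between the treated groups (0.39). Klf4, a factor of differentiating epithelium, led that list in signal and was 1.24-fold higher with lubiprostone in CF and 1.20-fold higher in WT. Without treatment the median log2 ratio of CF control over WT control was 0.23 for the AP-1 list and 0.20 for the transcription factors.

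The feedback list holds early genes that adjust the signal, among them inhibitors as Dusp1 and Zfp36 are. Of 23 kept, 15 were higher and 8 lower with lubiprostone in CF (median log2 ratio 0.20), 12 were higher and 11 lower with it in WT (0.01), and 18 were higher and 5 lower in CF + lubiprostone than in WT + lubiprostone (0.24). Socs3, which blocks cytokine receptor signalling through JAK and STAT3, had 7696 in CF + lubiprostone, 3924 in CF control, 1937 in WT + lubiprostone and 1096 in WT control. The 4 arrays were ordered by genotype and then by treatment, and Socs3 was 3.58-fold above WT control in CF control and 3.97-fold above WT + lubiprostone in CF + lubiprostone. Tnfaip3 (A20), an inhibitor of NF-κB signalling, had 1108 in CF + lubiprostone, 861 in CF control, 365 in WT + lubiprostone and 491 in WT control, a 3.03-fold difference between the treated groups. Btg1, an antiproliferative gene with the highest mean probe set signal of that list, was 1.37-fold higher with lubiprostone in CF and 1.03-fold lower in WT. Nfkbia, named after its values were seen, had 6165 in CF + lubiprostone and 2773 in WT + lubiprostone, a 2.22-fold difference.

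With signals as deposited, the early secreted and signalling genes, 11 kept, had the highest medians of the early gene lists with lubiprostone in CF and between the treated groups. They had the lowest with lubiprostone in WT. With lubiprostone in CF 10 were higher and 1 lower (median log2 ratio 0.58), and all 11 were higher in CF + lubiprostone than in WT + lubiprostone (0.70). In WT mice 1 of the 9 that could be counted was higher with lubiprostone and 8 were lower (-0.17). Several genes of this list were dim, among them Ccn1, Ptgs2, Edn1, Lif and Plaur, and the medians rest on them. The 0.70 was the log2 ratio of Ccn1, at least 1.52-fold higher when signals under the array's median were set to it. The 0.58 was that of Plaur, with 369 in CF + lubiprostone and 247 in CF control. Ereg, the EGF receptor ligand epiregulin, had 1387 in CF + lubiprostone, 665 in CF control, 467 in WT + lubiprostone and 619.9 in WT control. It was 2.09-fold higher with lubiprostone in CF and 1.33-fold lower in WT, the same directions as Dusp1. Cxcl1, a neutrophil chemokine, was higher between the treated groups, in CF + lubiprostone, by at least 1.73-fold when signals under the array's median were set to it, with 3 probe sets that disagreed in size. Cxcl2, its relative, named after its values were seen, had 474 in CF + lubiprostone and 33.8, under the array's median, in WT + lubiprostone, and so was at least 3.87-fold higher.

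The kinases and factors upstream of the members went both ways. Of 17 kept, 9 were higher and 8 lower with lubiprostone in CF (median log2 ratio 0.03), 10 were higher and 7 lower in WT (0.06), and 7 were higher and 10 lower in CF + lubiprostone than in WT + lubiprostone (-0.05). Map2k1, the kinase that activates ERK, was 1.11-fold lower with lubiprostone in CF and 1.06-fold lower in WT. Single genes of the list differed as much as the members, here named after their values were seen. With lubiprostone in CF, Mapkapk2, a kinase below p38, was 1.40-fold higher, Creb1 was at least 1.28-fold lower and Crem, a CREB relative, at least 1.36-fold lower. In WT, the 2 kept probe sets of Mrtfb, an SRF partner, disagreed in direction, at 0.97-fold and 4.36-fold with lubiprostone. Their mean was 1.08-fold higher when signals under the array's median were set to it. The heat shock genes, another set that follows acute stress, went another way than the members in CF mice. In WT mice the members were mixed, 4 higher and 5 lower with lubiprostone. All 6 heat shock genes were lower with lubiprostone in CF (-1.20) and all 6 in WT (-1.12). These medians fall between 3 genes that were at least 3-fold lower in each genotype and 3 that differed far less. Hspa1b had 487 in CF + lubiprostone, 2404 in CF control, 379 in WT + lubiprostone and 1671 in WT control, 4.93-fold lower with lubiprostone in CF and 4.41-fold lower in WT. Hspa1a was 3.97-fold and 3.66-fold lower, and Hsph1 5.12-fold and 3.43-fold lower. Hspa8, the heat shock gene with the highest signal, was 1.25-fold lower in CF and 1.37-fold lower in WT. Dnajb1 was 1.34-fold and 1.32-fold lower, and Hspb1 1.16-fold and 1.20-fold lower. The part of these stress genes in the members' values was not tested.

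**Figure D4:**
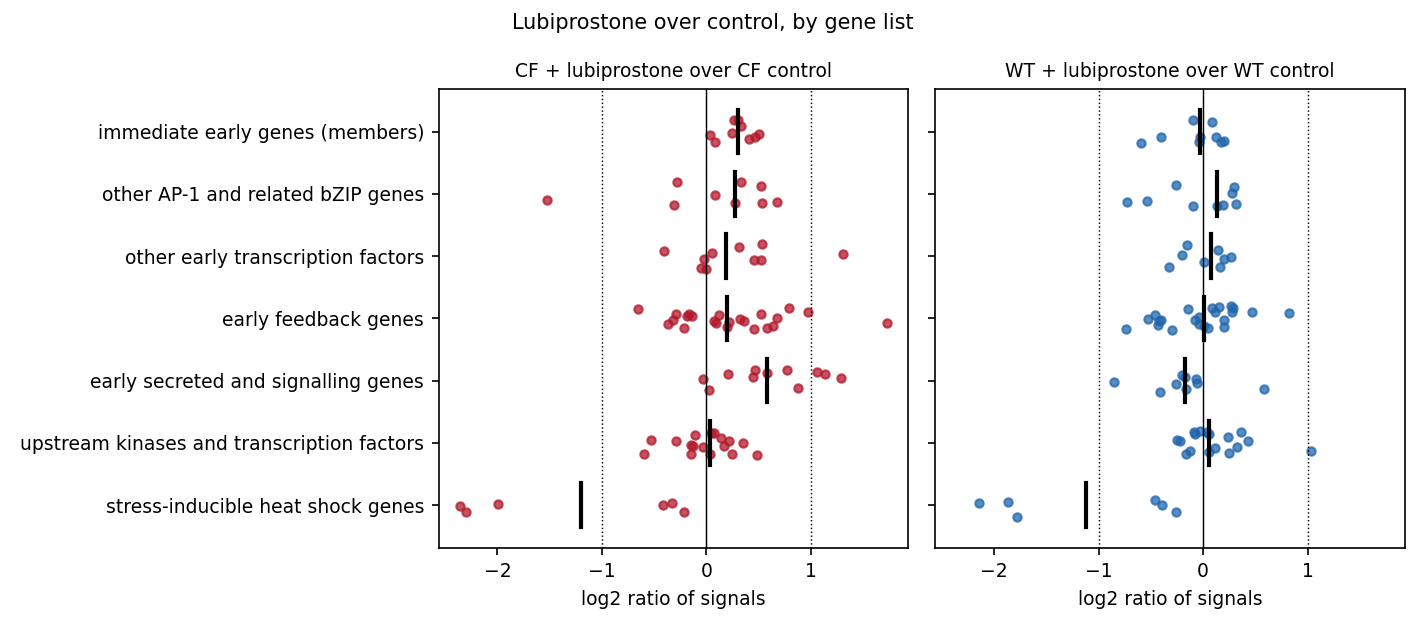
log2 ratio of signals, lubiprostone over control, of the genes of each list that could be counted (points) and their median (black bar), in CF mice (left) and WT mice (right), with dotted lines at 2-fold. The medians of the members are 0.31 in CF and -0.03 in WT, those of the secreted genes 0.58 and -0.17, and those of the heat shock genes -1.20 and -1.12.

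Genes outside the lists were ranked by the distance of their pattern to the members' mean among 253 genes at or above the 75th percentile on all arrays whose pattern spanned at least 1 log2 unit. The members' mean pattern, each gene centred on its own mean, was 0.23 in CF + lubiprostone, -0.07 in CF control, -0.11 in WT + lubiprostone and -0.05 in WT control. That mean spanned 0.34 log2 units, less than the 1 log2 unit asked of the candidates, so none of them could coincide with it, and flatter genes were not ranked. The nearest candidates were Ifi47, Trim30a, Oasl2, Vip and Dgat2, with root mean square differences over the 4 arrays between 0.28 and 0.30 log2 units. Oasl2, an interferon-induced gene, had 5165 in CF + lubiprostone, 3153 in CF control, 2714 in WT + lubiprostone and 2488 in WT control. Vip, the neuropeptide VIP, had 2813 in CF + lubiprostone, 1934 in CF control, 1793 in WT + lubiprostone and 1339 in WT control. The order of these genes is a description only.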

How the data were processed

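Total RNA of the small intestine was measured on 4 Affymetrix mouse GeneChip arrays, 1 pool of mice each. The authors extracted the deposited intensity values with GCOS (MAS5), a linear signal per probe set scaled by array; the deposited table has no detection calls. The arrays carry 45101 probe sets. The probe annotation names 1 gene for 34958, several for 932 and none for 9211, and current symbols were found for 34754. Probe sets with several genes were left out.

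Signals were taken as deposited. Probe sets at or above their array's median on 1 or more of the 4 arrays were kept (21756 probe sets, 12259 genes). Folds are ratios of signals, with log2 ratios of a gene's kept probe sets averaged. A comparison counted a gene if either of its arrays had a kept probe set at or above the median. Calls were at 2-fold and at 3-fold, the study's threshold. Where 1 signal lay under the median, folds are given as at least the value with that signal set to it, and none where both did. No test was run, since each group had 1 array, so precision is limited by the number of pools. The script was tested on simulated data with known folds. All 10 members were named, along with list genes that were 3-fold different and reached the 75th percentile, the gene with the highest signal of each list, and 5 genes of nearest pattern. Members and lists were chosen with earlier results of these data known. Python 3.11.15, numpy 2.4.6 and pandas 2.3.3 were used, with 7 alternatives.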

Additional observations from a re-analysis of the deposited data

Results flagged for a closer look

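For 5 of the 9 members kept, the arrays of lubiprostone-treated mice lay on opposite sides of their controls in the 2 genotypes. Each was higher with lubiprostone in CF mice and lower with it in WT mice. The log2 lubiprostone ratio in CF minus that in WT was 1.10 for Dusp1, 0.81 for Atf3, 0.56 for Nr4a1, 0.36 for Jun and 0.13 for Ier2. The log2 ratio in WT alone was -0.60 for Dusp1, -0.40 for Atf3, -0.10 for Nr4a1, -0.03 for Jun and -0.04 for Ier2. For Nr4a1, Jun and Ier2 it was within the median spread of 0.11 between probe sets of one gene among brighter genes, so their opposite signs rest on changes of 1.07-fold, 1.02-fold and 1.03-fold in WT. These differences were not tested, since each group was 1 array. Among all 12259 genes, 43.0% had opposite signs in the 2 genotypes and 22.8% were higher with lubiprostone in CF and lower with it in WT. With arrays scaled to the same median, Ier2 was lower with lubiprostone in CF (-0.04) and so no longer opposite.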

How the results depend on the processing

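The ratios were recomputed with arrays scaled to the same median, quantile-normalized signals, no filter on dim signals, a stricter one (the 75th percentile), signals below the median set to it, the highest probe set of each gene, and ratios of mean linear signals. A value was called moved when it differed by more than the spread between probe sets among brighter genes. Of the members' medians and counts of 2-fold calls, only the median log2 ratio of CF control over WT control moved. It was 0.12 with arrays scaled to the same median, against -0.06 as deposited, where the median of all genes moved to 0.16. The members' median of CF + lubiprostone over CF control fell from 0.31 to 0.18 under that scaling, a shift within that spread. The median of all genes was then -0.12. Of 248 values of single members, 239 differed by less than the spread between probe sets and 9 moved, all in CF control over WT control under that scaling. Under it 5 changed sign: Egr1 (0.12), Dusp1 (0.12) and Nr4a1 (0.01) in CF control over WT control, and Fos (-0.09) and Ier2 (-0.04) in CF + lubiprostone over CF control. With the stricter filter, which left 8 members, the members' medians of CF control over WT control and of WT + lubiprostone over WT control were both 0.03. The Dusp1 log2 ratio of CF + lubiprostone over WT + lubiprostone was between 1.03 and 1.08 throughout. No paired analysis was possible because each group has 1 array. Single pools and dim signals (Fosb, Nr4a1) limit what can be said.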
